A study of Mus musculus with 24 samples.

Results

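The genes described here encode collagens and other components of the extracellular matrix of ID8 mouse ovarian cancer cells, together with enzymes and inhibitors that build or cut that matrix. Members were taken by symbol from a list of 40 genes: fibrillar, basement membrane, beaded filament and fibril-associated collagens, glycoproteins, proteoglycans, laminins and nidogens, cross-linking enzymes with a collagen chaperone, and proteases with their inhibitors. Of the 40, 33 were found among 24614 genes of the count table, and Col6a1, Col6a2, Thbs2, Postn, Lum, Nid2 and Mmp14 were not analysed here. Counts were high enough to test for 24 of the 33, out of 11698 genes tested in all.

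The extracellular matrix is the protein and sugar network that cells secrete around themselves. Fibrillar collagens give it tensile strength, while type IV collagens, laminins, nidogen and perlecan form the thin basement membrane on which epithelial cells rest. Lysyl oxidases cross-link the fibres, metalloproteinases cut them, and tissue inhibitors of metalloproteinases restrain the cutting. Ovarian surface and mesothelial cells, the kind of cell from which ID8 derives, lie on such a basement membrane.

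Messenger RNA was counted in 4 lines, all of them ID8 cells that lack both Trp53, a tumour suppressor gene, and Brca2, which serves DNA repair. WT cells were untransfected and EV cells had received an empty CRISPR vector, while 1CF10 and 2CD7 were single clones with a CRISPR knockout of Ifnar1, which encodes a chain of the type I interferon receptor. Cells of each line were left untreated or given 10000 IU/ml recombinant murine interferon beta (IFN beta) for 3 h, which makes 8 groups, each with 3 technical replicates of the same date. The spread between replicates, and so every p-value, is therefore technical, and a difference between lines compares those lines and not their genotypes.

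The 24 libraries held 1972192 to 3097331 unique molecular identifiers (UMIs, one for each captured RNA molecule). Levels are given as CPM, the usual scale on which a gene's UMIs are divided by the total UMIs of its library, and which can be compared between libraries for a gene but not between genes of unequal length or priming. Treated 1CF10 library 3 stood apart from its replicates: its chi-square per gene against the other 2 was 5.20, where other libraries had 1.39 to 3.03. It also had the highest summed level of the matrix genes, 4104 CPM, in a range that began at 2950 CPM. Calls that were lost without it are named beside the counts they enter. In bulk RNA, fewer cells of a kind and less RNA per cell cannot be told apart. Exons of 11 members, among them Col4a1, Col4a2, Col5a1, Fbn1, Fn1, Lox, Thbs1 and Timp3, overlap an annotated gene of the opposite strand (for 9 of them, not Fbn1 or Tnc, one that is in the count table), and the sources used here do not say whether the counting used strand, so part of their counts could belong to that gene. Keratins and mesothelial markers were abundant in every library, with 9 of 10 listed markers counted at a summed 2156 to 3865 CPM. Krt8, Krt18, Krt19, Wt1 and Msln carried that sum, while Krt7, Cdh1 and Lrrn4 were at or near 0. Of 10 fibroblast markers 7 were counted, and S100a4 made up most of their sum at 135 to 284 CPM. Twist2 had 5.13 to 17.1 CPM. Over all libraries Tagln had 123 UMIs and Acta2 24, while Pdgfra, Pdgfrb and Thy1 had 1 UMI each. Endothelial markers (4 of 7 counted) summed to at most 1.90 CPM, and of the 4 of 10 leukocyte markers counted Cd14 led with 6.91 to 20.5 CPM.

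In most comparisons of lines, more matrix genes were called than with IFN beta. Untreated 2CD7 against WT had 3 called, as IFN beta in WT did. Among untreated cells 19 of the 24 tested genes were called in at least 1 of the 6 comparisons of lines, and among treated cells 21 were. Of all tested genes, 32% and 47.1% were called in at least 1 of those comparisons. A gene was called at an edgeR adjusted p below 0.05 over all tested genes. The comparisons share groups, since each line enters 3 of them, so their counts are not independent of each other. Clone 1CF10 had the highest untreated mean for 14 of the 24 genes, and clone 2CD7 had the lowest for 15, where these lines were highest for 32.4% and lowest for 22.3% of all tested genes. Timp2, Lama5 and Lamc1 were called in no comparison of lines or treatments.

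**Figure D1:**
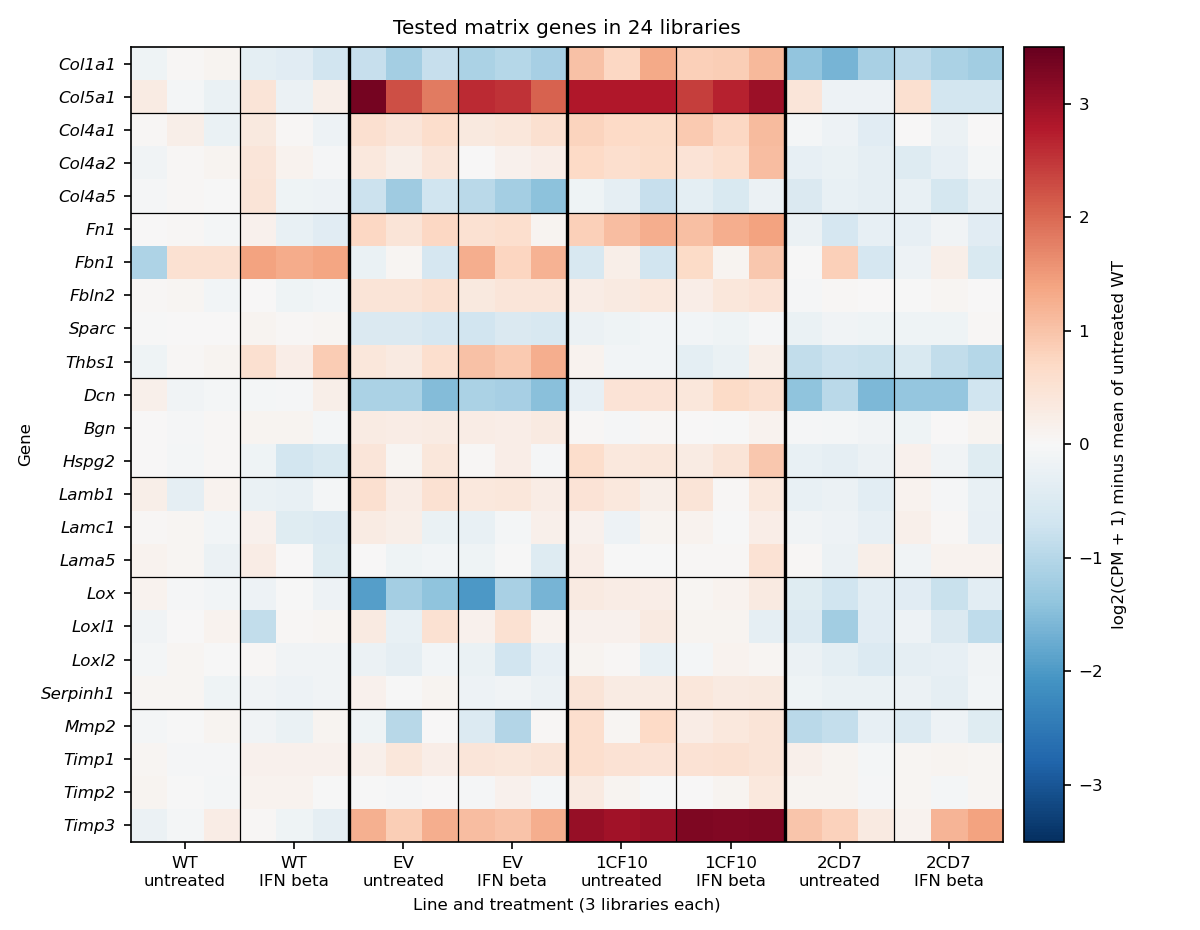
Level of the 24 tested matrix genes (rows, ordered by role) in the 24 libraries (columns, 3 for each line and treatment), as log2(CPM + 1) minus the mean of untreated WT. Red marks higher and blue lower levels: Col5a1 and Timp3 were red in EV and 1CF10, Col1a1 was red in 1CF10 and blue in EV and 2CD7, and Lox and Dcn were blue in EV.

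Matrix genes were lower in clone 2CD7 than in clone 1CF10. In untreated 2CD7, 16 of 24 matrix genes were lower than in untreated 1CF10 and 0 were higher (edgeR, with 0 higher also at an unadjusted p below 0.05, and 15 genes called by DESeq2 and 16 by limma-voom), where 5.69% of all tested genes were lower and 7.71% higher. The median log2 difference was -0.66 over the 24 matrix genes and -0.01 over all tested genes. Genes with more counts pass more easily. Of the 15 matrix genes with an average log2 CPM of at least 5, 10 were lower, against 7.5% of the 5412 tested genes at that level. The list was chosen with earlier results of these data known, so its contrast with all tested genes is not independent of them. The members included fibrillar collagens, type IV collagens, fibronectin, decorin, perlecan, the lysyl oxidase genes Lox and Loxl1, Mmp2 and Timp3. The fibrillar collagen gene Col5a1 passed the filter on low counts through EV and 1CF10 alone, where it was high. It also enters the counts of EV and 1CF10 against WT and of 2CD7 against EV. The call of Loxl1 was lost in 4 of 7 other settings. In the libraries given IFN beta, which are other libraries than the untreated ones, 14 were lower and 0 higher, and 14 genes were called lower in both states (87.5% of the untreated and 100% of the treated calls). The background in treated cells was 6.41% lower and 8.76% higher. The share of all tested genes called lower in both states was not counted. Without treated 1CF10 library 3, 12 of the treated calls were made, and those of Thbs1 (edgeR adjusted p = 0.0741) and Mmp2 (0.0871) were lost.

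**Figure D2:**
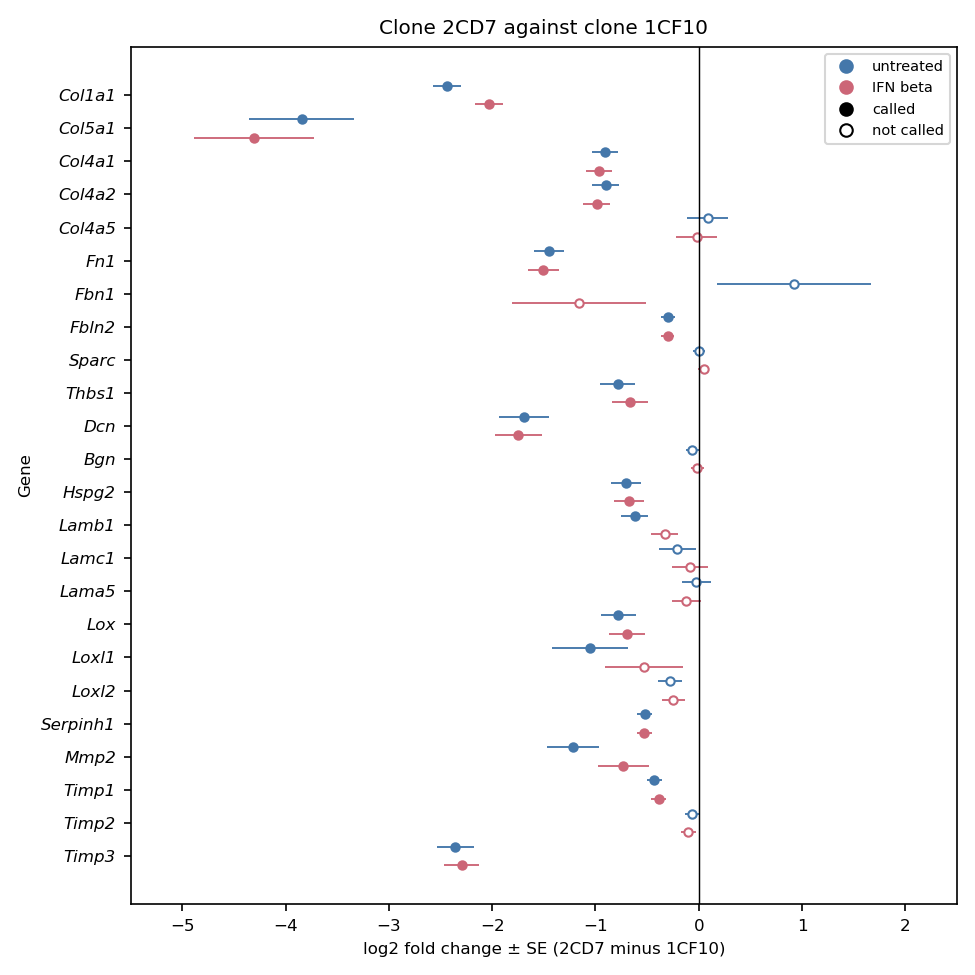
Log2 fold change ± SE of clone 2CD7 against clone 1CF10 for each tested matrix gene, untreated (blue) and with IFN beta (red), with filled points for genes called at an edgeR adjusted p below 0.05. Every filled point lies left of 0, and the fitted value of Col5a1 in treated cells rests on 3 UMIs in 2CD7.

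Against EV, clone 2CD7 had 10 lower and 2 higher of 24, where 4.86% and 4% of all tested genes were. Against WT it had 3 lower and 0 higher, where 2.06% and 1.45% of all tested genes were. At an unadjusted p below 0.05 those numbers against WT were 13 and 1, and DESeq2 called 2 and limma-voom 4. Clone 1CF10 had 10 higher and 1 lower than WT (8.19% and 11% of all tested genes), and 9 higher and 3 lower than EV (3.6% and 6.76%). The controls differed from each other as well: in untreated EV, 9 genes were higher and 5 lower than in WT, where 6.96% and 7.14% of all tested genes were. Median log2 differences over the matrix genes were 0.28 for 1CF10 against WT, 0.16 for 1CF10 against EV, -0.24 for 2CD7 against WT, -0.37 for 2CD7 against EV and 0.19 for EV against WT, with medians over all tested genes between -0.02 and 0.01. Summed levels of the surface epithelial and mesothelial markers moved between the lines too. Untreated libraries had 2252 to 2286 CPM in 1CF10, 2414 to 2486 CPM in EV, 2818 to 3039 CPM in WT and 3025 to 3110 CPM in 2CD7, and their part in the matrix differences was not tested. Summed fibroblast markers, mostly S100a4, had 246 to 271 CPM in untreated WT, 182 to 238 CPM in EV, 153 to 196 CPM in 1CF10 and 170 to 208 CPM in 2CD7, so that WT lay above the other lines. Summed leukocyte markers, mostly Cd14, were lowest in untreated 2CD7, at 9.82 to 13.0 CPM, where the untreated libraries of other lines ranged from 14.2 to 24.0 CPM. The part of these lists was not tested either.

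No matrix gene set both untreated clones apart from both untreated controls in the same direction (edgeR, adjusted p below 0.05 in all 4 comparisons). In treated cells Thbs1 alone did, being lower in each clone. How many of all tested genes met this rule was not counted, so neither result sets the matrix genes apart.

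Among the fibrillar collagens, Col5a1 and Col1a1 had enough counts to test. Col5a1 encodes the chain of type V collagen that starts and limits fibril growth (chr2:27886425-28039514 of GRCm38, plus strand). It was nearly absent from WT and 2CD7 and present in EV and 1CF10, and it passed the filter on low counts (3.98 CPM in at least 3 libraries) through EV and 1CF10 alone. Untreated levels were 0.894, 0.507 and 0.344 CPM in WT, 14.9, 6.49 and 4.47 CPM in EV, 9.96, 10 and 10 CPM in 1CF10, and 1.09, 0.393 and 0.394 CPM in 2CD7. The libraries of EV and 1CF10 were all above those of WT and 2CD7, and EV overlapped with 1CF10 as WT did with 2CD7. In counts, 64 UMIs in untreated EV and 82 in 1CF10 stood against 4 in WT and 5 in 2CD7. EV exceeded WT by a log2 difference of 3.83 ± 0.56 (SE) and 1CF10 exceeded WT by 4.01 ± 0.54, with edgeR adjusted p = 5.13e-07 and 4.14e-08. Between 1CF10 and EV the difference was 0.18 ± 0.30, with adjusted p = 0.79. With IFN beta, 2CD7 held 3 UMIs in 1 of its 3 libraries and 1CF10 held 74, a ratio of 22.6 with a 95% exact counting interval of 7.43 to 112.

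Col1a1, which encodes the main chain of type I collagen (chr11:94936224-94953042, plus strand), separated 1CF10 from all other lines. Untreated libraries had 60.4, 69.5 and 72.6 CPM in WT, 38.1, 29.2 and 38.2 CPM in EV, 138, 112 and 171 CPM in 1CF10, and 25.1, 21.2 and 30.4 CPM in 2CD7. The lines did not overlap except EV and 2CD7. 1CF10 was higher than WT by a log2 difference of 1.03 ± 0.12, than EV by 1.97 ± 0.13 and than 2CD7 by a difference, written as 2CD7 minus 1CF10, of -2.44 ± 0.14, with edgeR adjusted p = 3.11e-09, 3e-16 and 3.56e-19. EV and 2CD7 were lower than WT, by log2 differences of -0.94 ± 0.14 and -1.41 ± 0.15 (adjusted p = 2.39e-06 and 5.68e-09), and 2CD7 against EV was not called at -0.47 ± 0.17 (adjusted p = 0.072). Col1a2, which encodes the partner chain of Col1a1 in type I collagen, was hardly counted, with 4 UMIs in WT, 7 in EV and 0 in the clones. The 0 counts of both clones allow up to 3 UMIs in 31391852, or 0.0956 CPM. Col3a1, of type III collagen, had 27, 21, 15 and 13 UMIs in WT, EV, 1CF10 and 2CD7, and Col5a2, which lies 24.6 kb from it on the opposite strand of chromosome 1, had 1, 4, 5 and 3.

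Among the type IV collagens, the main network of basement membranes, Col4a1 and Col4a2 moved together. Their products assemble into one molecule, and the genes stand head to head on chromosome 8 (chr8:11198423-11312826 on the minus strand and chr8:11312805-11449287 on the plus strand of GRCm38), sharing a promoter region. The RefSeq promoter windows, 250 bases before to 50 after each start in GRCm38.p6, are shown because the pair moved together. The capitals mark the 78 bases that the windows share, chr8:11312777-11312854, read on opposite strands. The first window is chr8:11312777-11313076 on the minus strand and the second is chr8:11312555-11312854 on the plus strand.
Col4a1: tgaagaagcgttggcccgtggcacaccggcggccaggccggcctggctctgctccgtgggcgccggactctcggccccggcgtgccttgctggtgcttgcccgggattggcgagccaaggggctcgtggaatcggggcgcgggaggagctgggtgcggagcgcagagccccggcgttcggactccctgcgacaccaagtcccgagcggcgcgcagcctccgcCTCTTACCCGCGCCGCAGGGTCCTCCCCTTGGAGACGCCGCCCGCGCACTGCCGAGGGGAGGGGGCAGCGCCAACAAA
Col4a2: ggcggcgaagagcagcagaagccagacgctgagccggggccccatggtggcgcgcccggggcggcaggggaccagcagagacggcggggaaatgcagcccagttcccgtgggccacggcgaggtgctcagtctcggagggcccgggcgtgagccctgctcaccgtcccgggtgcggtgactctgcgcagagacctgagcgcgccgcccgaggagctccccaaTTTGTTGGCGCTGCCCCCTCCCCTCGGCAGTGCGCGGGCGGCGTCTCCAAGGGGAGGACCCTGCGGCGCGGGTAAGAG
The GC box GGGCGG, searched on both strands, was found 9 bases after the start of Col4a1 and at -192, -48 and 7 relative to that of Col4a2. The matches at 9 and at 7 are the same bases of the shared stretch, read on opposite strands. CCAAT was found at -145 and -32. Over all 32851 RefSeq windows of this length, 35.7% hold GGGCGG and 37.4% hold CCAAT, and matches only describe the letters.

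Untreated levels of Col4a1 were 42, 47.2 and 34.7 CPM in WT, 61, 55.6 and 63 CPM in EV, 71.4, 66.5 and 65.2 CPM in 1CF10, and 38.9, 35.8 and 31.2 CPM in 2CD7. Those of Col4a2 were 40.2, 45.6 and 47.1 CPM in WT, 57.8, 50.7 and 59.8 CPM in EV, 71.9, 66.5 and 69.7 CPM in 1CF10, and 36, 37.8 and 35.5 CPM in 2CD7. For both genes the order was 1CF10, EV, WT and 2CD7, with no overlap except between WT and 2CD7 in Col4a1. Untreated 2CD7 was lower than 1CF10 by -0.91 ± 0.13 in Col4a1 and -0.90 ± 0.13 in Col4a2, with edgeR adjusted p = 1.33e-07 and 2.12e-07. 1CF10 exceeded WT by 0.70 ± 0.13 and 0.61 ± 0.13 (adjusted p = 2.11e-05 and 0.000205). EV exceeded WT by 0.55 ± 0.13 in Col4a1 (adjusted p = 0.00132), and by 0.34 ± 0.13 in Col4a2, which was not called (adjusted p = 0.0788). In treated cells Col4a1 and Col4a2 were called higher in 1CF10 than in EV, and neither call was kept without treated 1CF10 library 3 (highest adjusted p over the alternatives 0.07 and 0.061). Col4a5, a minor type IV chain encoded on the X chromosome, went another way. It was lower in EV than in WT, with 13.6, 9.33 and 14.2 CPM against 22.8, 24.3 and 23.4 CPM, a log2 difference of -0.92 ± 0.21 (adjusted p = 0.000755), and its other untreated comparisons were not called. Col18a1, which encodes the basement membrane collagen that yields endostatin, had 2 UMIs over all libraries.

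Of the beaded filament and fibril-associated collagens, Col6a3 had 2 UMIs in all and Col12a1 had 14. Of those 14, 10 were in 1CF10, 2 in WT and 1 each in EV and 2CD7. Neither gene could be tested.

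Among the glycoproteins, Fn1, which encodes fibronectin, a ligand that links integrins to collagen (chr1:71585520-71653200, minus strand), followed the order of the type IV pair. Untreated libraries had 27.7, 27.9 and 26.1 CPM in WT, 45.8, 37.3 and 45.6 CPM in EV, 49.8, 58.6 and 67.2 CPM in 1CF10, and 23.6, 17.7 and 22.1 CPM in 2CD7. No 2 lines overlapped. Fn1 was higher in 1CF10 than in WT by 1.09 ± 0.15 and lower in 2CD7 than in 1CF10 by -1.45 ± 0.15 and than in EV by -1.02 ± 0.16, with edgeR adjusted p = 3.04e-08, 2.18e-11 and 2.46e-06. In EV it was above WT by 0.66 ± 0.15 (adjusted p = 0.00137). The call of 1CF10 against EV (0.43 ± 0.13, adjusted p = 0.0251) was lost without untreated 1CF10 library 2 or 3 or untreated EV library 2.

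Sparc, which encodes a collagen-binding protein that shapes cell adhesion, was lower in EV than elsewhere. It had 1083 ± 9.37 CPM (SD, n = 3) in untreated WT, 744 ± 25.0 CPM in EV, 978 ± 33.3 CPM in 1CF10 and 962 ± 37.6 CPM in 2CD7. The highest EV library, at 760 CPM, lay below every library of the other lines. EV was lower than WT by a log2 difference of -0.54 ± 0.06, and 1CF10 and 2CD7 each exceeded EV by 0.37 ± 0.06, with edgeR adjusted p = 4.42e-11, 2.11e-06 and 2.48e-06. Fbln2, which encodes fibulin-2 of basement membranes and elastic fibres, went the other way between the controls, with 285 ± 16.9 CPM in WT, 401 ± 18.9 CPM in EV, 354 ± 13.1 CPM in 1CF10 and 284 ± 9.10 CPM in 2CD7. EV exceeded WT by 0.50 ± 0.07 (adjusted p = 4.24e-08), and 2CD7 against WT was -0.01 ± 0.07 (adjusted p = 0.98).

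Thbs1, which encodes thrombospondin-1, a glycoprotein that binds cells and activates latent TGF beta (chr2:118111876-118127133, plus strand), was lowest in 2CD7. Untreated levels were 31.8, 36.5 and 37.8 CPM in WT, 47, 44.2 and 53.7 CPM in EV, 38.5, 33.2 and 32.9 CPM in 1CF10, and 18.9, 20.5 and 20.1 CPM in 2CD7. Every 2CD7 library was below every other library, and WT and 1CF10 overlapped. 2CD7 was lower than WT by -0.84 ± 0.17, than EV by -1.29 ± 0.16 and than 1CF10 by -0.78 ± 0.17, with edgeR adjusted p = 0.00137, 2.35e-08 and 0.000545. EV exceeded WT by 0.44 ± 0.15 (adjusted p = 0.0354), a call that was lost without untreated EV library 3 or without any 1 of the untreated WT libraries (adjusted p = 0.0598 to 0.17). Tnc, which encodes tenascin-C, had 4 UMIs over all libraries, and Fbn1 is described with IFN beta.

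**Figure D3:**
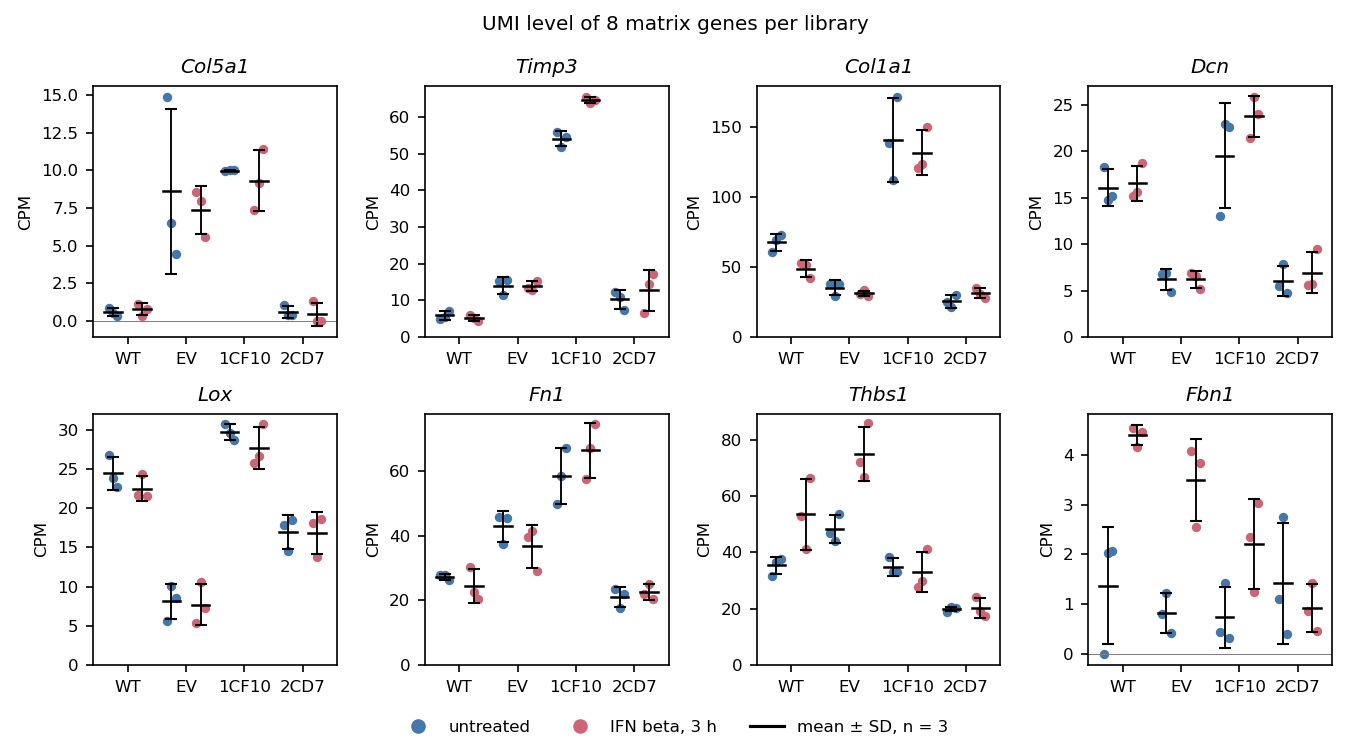
CPM of 8 matrix genes in each library (points), by line, untreated in blue and with IFN beta in red, with the mean and SD of 3 libraries as bars. Col5a1 was high in EV and 1CF10, Timp3 was highest in 1CF10, Lox was lowest in EV, and the red points of Thbs1 and Fbn1 lie above the blue ones in WT and EV.

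Among the proteoglycans, Dcn encodes decorin, which coats and spaces collagen fibrils (chr10:97479609-97518143, plus strand). It split the lines into 2 levels: WT libraries without IFN beta had 18.3, 14.7 and 15.1 CPM, and those of 1CF10 had 13, 22.9 and 22.6 CPM. The levels were 6.82, 6.9 and 4.88 CPM in EV, against 5.45, 7.87 and 4.73 CPM in 2CD7. WT and 1CF10 overlapped with each other, as did EV and 2CD7, and the pairs did not overlap. EV was lower than WT by -1.36 ± 0.26 and 2CD7 by -1.41 ± 0.26, and 1CF10 exceeded EV by 1.64 ± 0.24, with edgeR adjusted p = 5.56e-05, 0.000192 and 5.32e-07. Bgn, which encodes the related proteoglycan biglycan, varied less, from 359 ± 8.64 CPM (SD, n = 3) in untreated 2CD7 to 457 ± 1.97 CPM in EV. It was higher in EV than in WT by 0.27 ± 0.06 (adjusted p = 0.00125). Hspg2 encodes perlecan, the large heparan sulfate proteoglycan of basement membranes, and was lower in untreated 2CD7 (51.1 to 54.8 CPM) than in 1CF10 (81.8 to 97 CPM) by -0.70 ± 0.14 (adjusted p = 0.000695). Vcan, which encodes versican, had 10 UMIs in all.

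Of the laminin genes tested, Lamb1 was called between lines and Lamc1 and Lama5 were not. Lamb1 and Lamc1 encode chains that join in the same laminin molecules. Lamb1 was lower in 2CD7 than in EV (-0.75 ± 0.13) and than in 1CF10 (-0.62 ± 0.13), with edgeR adjusted p = 2.77e-05 and 0.000433 and untreated ranges of 32.3 to 36.6 CPM in 2CD7, 50.7 to 62.6 CPM in EV and 49.1 to 59.3 CPM in 1CF10. Its partner Lamc1, at 18.1 to 27.7 CPM in untreated libraries, had differences of -0.32 ± 0.18 and -0.21 ± 0.18 in the same comparisons, which were not called (adjusted p = 0.318 and 0.522). Whether the 2 genes differ in this respect was not tested. Lama5, the laminin chain of mature epithelial basement membranes, had 42 to 58 CPM in untreated libraries and log2 differences between -0.07 and 0.11, none of them called. Nid1, which encodes the linker protein nidogen-1, had 59 UMIs, 13 to 17 in each line.

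Of the genes that cross-link or fold collagen, Lox, which encodes lysyl oxidase, was lowest in EV. Untreated levels were 26.8, 23.8 and 22.7 CPM in WT, 5.62, 10.1 and 8.54 CPM in EV, 30.7, 29.7 and 28.7 CPM in 1CF10, and 17.8, 14.6 and 18.5 CPM in 2CD7. The 4 lines did not overlap. EV was lower than WT by -1.58 ± 0.21, and 1CF10 exceeded EV by 1.84 ± 0.20 and 2CD7 exceeded EV by 1.06 ± 0.22, with edgeR adjusted p = 4.8e-08, 2.61e-10 and 0.000531. 2CD7 was lower than 1CF10 by -0.78 ± 0.17 (adjusted p = 0.000621). Serpinh1, which encodes the collagen chaperone HSP47, was highest in 1CF10, at 286 to 324 CPM against 200 to 263 CPM in the other untreated lines, and 2CD7 was lower than 1CF10 by -0.52 ± 0.07 (adjusted p = 6.38e-08). Loxl1, a lysyl oxidase of elastic fibres, was called lower in 2CD7 than in 1CF10 (-1.05 ± 0.37, adjusted p = 0.0457), at 1.57 to 3.55 CPM against 5.63 to 6.46 CPM. That call was lost without any 1 of the 6 libraries. It was also lost with DESeq2, with no filter, with thinning and with the replicate number as a block. Loxl2, a related enzyme, was called in no untreated comparison.

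Among the protease and inhibitor genes, Timp3 was highest in 1CF10. It encodes an inhibitor of metalloproteinases that stays bound to the matrix (chr10:86300372-86349506, plus strand) and lies within Syn3, a gene of the opposite strand. Untreated levels were 4.92, 5.58 and 7.22 CPM in WT, 15.3, 11.4 and 15.5 CPM in EV, 55.9, 51.8 and 54.6 CPM in 1CF10, and 12.4, 11 and 7.49 CPM in 2CD7. 1CF10 was far above all other lines and WT below all, while EV and 2CD7 overlapped. 1CF10 exceeded WT by 3.12 ± 0.20, EV by 1.91 ± 0.17 and 2CD7 by a difference, written as 2CD7 minus 1CF10, of -2.35 ± 0.18, with edgeR adjusted p = 4.3e-19, 2.05e-13 and 2.54e-16. EV exceeded WT by 1.21 ± 0.26 (adjusted p = 0.000508), and 2CD7 against WT was not called at 0.77 ± 0.28 (adjusted p = 0.114). With IFN beta the order was similar, with 63.6 to 65.3 CPM in 1CF10 and 4.48 to 6.08 CPM in WT, and the difference of 2CD7 from WT, 1.22 ± 0.27, was called (adjusted p = 0.000637).

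Timp1, a secreted and soluble inhibitor, was also highest in untreated 1CF10, at 235 ± 7.54 CPM (SD, n = 3) against 163 ± 6.80 CPM in WT, a log2 difference of 0.50 ± 0.07 (edgeR adjusted p = 2.7e-07). Timp2, which also takes part in activating Mmp2, had 562 to 725 CPM over the untreated libraries, and all lines overlapped. Mmp2 encodes gelatinase A, which cuts type IV collagen, and had 5.45, 5.9 and 9.07 CPM in untreated 2CD7 against 17.3, 11.8 and 19 CPM in 1CF10, a log2 difference of -1.22 ± 0.25 (adjusted p = 0.000286).

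Most calls between untreated lines were also made between treated lines, whose libraries are other ones. All 14 untreated calls of EV against WT had a call of the same direction in the treated libraries (100% of the untreated and 87.5% of the 16 treated calls). Of all tested genes, 9.7% were higher and 9.45% lower in treated EV than in treated WT. For 1CF10 against WT 11 calls were shared (100% of the untreated and 78.6% of the treated), for 2CD7 against WT 3 (100% and 37.5%), for 1CF10 against EV 10 (83.3% and 66.7%) and for 2CD7 against EV 10 (83.3% and 71.4%). No matrix gene was called in opposite directions in the 2 states of a pair. How many of all tested genes were called alike in both states was not counted, so these shares do not set the matrix genes apart. In treated cells 11 matrix genes were higher and 3 lower in 1CF10 than in WT, where 14.9% and 17.1% of all tested genes were. Against EV, 1CF10 had 13 higher and 2 lower (7.34% and 11.6% of all tested genes). Without treated 1CF10 library 3 these counts were 10 and 3 against WT, with Col4a2 lost (edgeR adjusted p = 0.0948), and 9 and 2 against EV, with Col4a1 (0.07), Col4a2 (0.061), Hspg2 (0.305) and Loxl2 (0.0534) lost. Treated 2CD7 had 1 higher and 7 lower than WT (5.94% and 8.06%), and 3 higher and 11 lower than EV (6.94% and 8.56%).

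**Figure D4:**
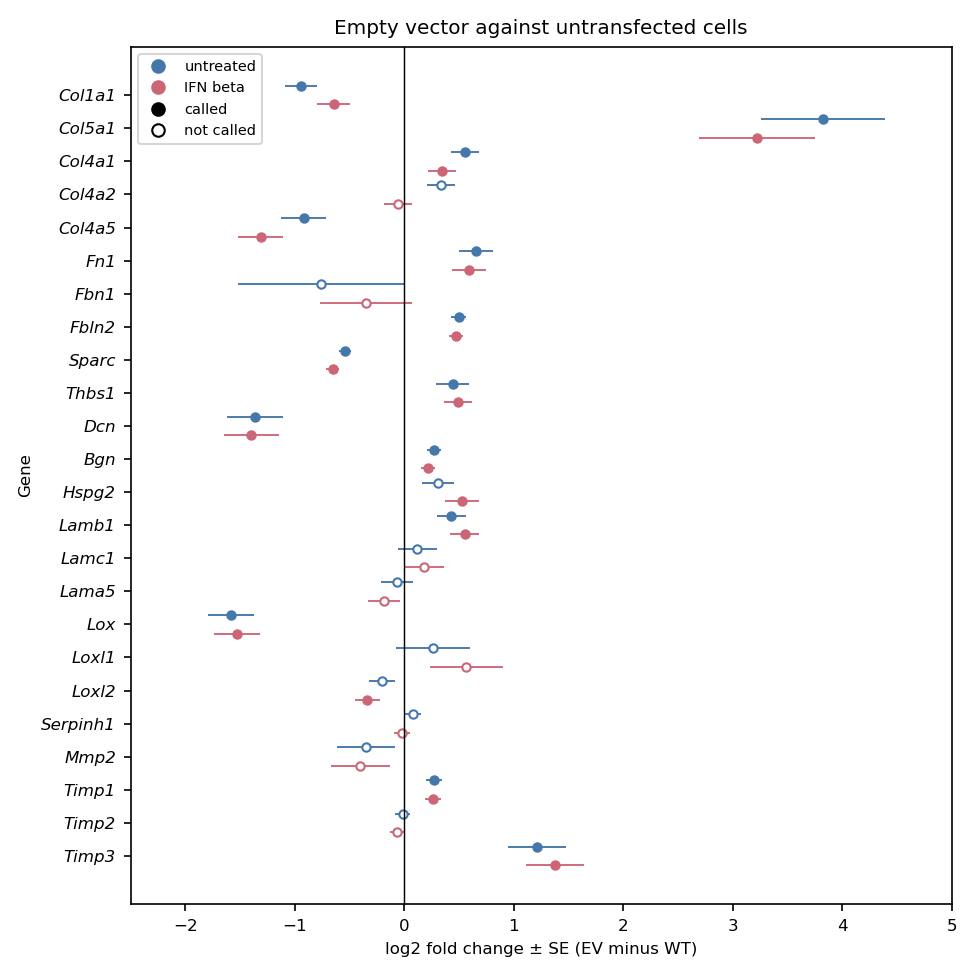
Log2 fold change ± SE of EV against WT for each tested matrix gene, untreated (blue) and with IFN beta (red), with filled points for genes called at an edgeR adjusted p below 0.05. Col5a1 and Timp3 lie farthest right, and Lox, Dcn, Col1a1 and Col4a5 lie left of 0 in both states.

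IFN beta moved few matrix genes. In WT, 2 of 24 rose and 1 fell, where 5.01% of all tested genes rose and 1.84% fell. In EV 2 rose and 0 fell (edgeR, with 1 lower by unadjusted p below 0.05, while 1 gene was called by DESeq2 and 2 by limma-voom), where 3.99% rose and 1.1% fell. In the clones edgeR called 0 of the 24 and 0% of all tested genes. Unadjusted p-values were below 0.05 for 1 matrix gene in 1CF10 and 0 in 2CD7. By DESeq2 and by limma-voom 0 were called in each clone. These counts are too small to set the matrix genes apart from tested genes in general. Summed surface epithelial and mesothelial markers also moved with IFN beta, from 2818 to 3039 CPM to 3605 to 3865 CPM in WT and from 2414 to 2486 CPM to 2760 to 2849 CPM in EV, and their part was not tested.

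Thbs1 rose in both controls. Treated WT libraries had 52.8, 41.4 and 66.4 CPM. Treated EV libraries had 72.3, 66.9 and 85.9 CPM, and in both lines each was above every untreated library of its line. In the clones it had 27.8, 30 and 41.1 CPM in 1CF10 and 24.2, 19.1 and 17.2 CPM in 2CD7, overlapping with the untreated libraries. The log2 fold change was 0.63 ± 0.15 in WT and 0.67 ± 0.13 in EV, with edgeR adjusted p = 0.00193 and 0.000189, and -0.10 ± 0.15 in 1CF10 and 0.02 ± 0.19 in 2CD7 (adjusted p = 0.998 and 1). The mean response of the clones was lower than that of the controls by a log2 difference of -0.69 ± 0.16 (adjusted p = 0.00224), the 1 matrix gene of 24 called for this difference, where 1.56% of all tested genes were higher and 3.68% lower. The difference of responses between EV and WT was 0.05 ± 0.20 (adjusted p = 0.992), and edgeR called 0 of 24 matrix genes for it, where 0.0256% of all tested genes were higher and 0.0171% lower. By unadjusted p below 0.05 there was 1, and DESeq2 and limma-voom also called 0. The call in WT was lost without treated WT library 3, at 0.44 with adjusted p = 0.0921. The call of the difference between clones and controls was kept without any 1 of the 24 libraries, at -0.79 to -0.59 with adjusted p of at most 0.00949.

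Fbn1, which encodes fibrillin-1, the main microfibril protein of elastic fibres (chr2:125300594-125507993, minus strand), was scarce and called in both controls. It passed the filter on low counts through treated libraries alone, 3 of WT and 1 of EV, so that its being tested rests on the groups where it was high. In WT it went from 0, 2.03 and 2.06 CPM in the untreated libraries to 4.56, 4.17 and 4.48 CPM in the treated ones. In EV the untreated levels were 0.803, 1.22 and 0.407 CPM, and the treated levels 4.08, 2.55 and 3.84 CPM. In UMIs these were 0 to 6 per library untreated and 7 to 12 treated, and treated and untreated libraries of a line did not overlap. The log2 fold change was 1.66 ± 0.52 in WT and 2.07 ± 0.62 in EV, with edgeR adjusted p = 0.0367 and 0.0307. In 1CF10 it was 1.54 ± 0.67 (adjusted p = 0.998, unadjusted p = 0.0251), with 2.34, 1.25 and 3.04 CPM treated against 0.433, 1.43 and 0.323 CPM, and in 2CD7 it was -0.54 ± 0.72 (adjusted p = 0.997). The clones' mean response minus that of the controls was -1.37 ± 0.69, which was not called (edgeR adjusted p = 0.337). DESeq2 called Fbn1 in neither control (adjusted p = 0.157 in WT and 0.129 in EV). The call in WT was also lost without treated library 1, 2 or 3 or untreated library 1 (adjusted p up to 0.241), and the call in EV without treated library 1 or 3 or untreated library 1 or 3 (adjusted p up to 0.146).

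The Fbn1 promoter window was the 1 of 24 windows of the analysed members that held the core of the interferon-stimulated response element, GAAA and again GAAA with any 2 bases between, searched on both strands, which 3.44% of all 32851 windows hold. The gamma-activated site TTCNNNGAA was in 0 of the 24 windows and 8.3% of all, and the AP-1 site TGANTCA in 0 and 7.81%. These windows belong to 22 of the 33 genes. Thbs1 and Col1a1, the other members called with IFN beta, had no window and were not searched. The Fbn1 window is shown with the match to the response element, 97 bases before the RefSeq start, and a GC box GGGCGG in capitals. It is chr2:125506389-125506688 of GRCm38.p6 on the minus strand, and the GENCODE model of Fbn1 begins upstream of it at 125507993.
Fbn1: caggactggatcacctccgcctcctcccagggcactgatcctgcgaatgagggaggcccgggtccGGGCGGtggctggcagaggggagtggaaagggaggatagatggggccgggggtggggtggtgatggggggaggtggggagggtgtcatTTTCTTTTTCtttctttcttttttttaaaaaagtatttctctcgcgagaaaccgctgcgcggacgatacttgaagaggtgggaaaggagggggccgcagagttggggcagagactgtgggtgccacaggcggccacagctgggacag
The match reads TTTCTTTTTC on this strand. Such a match describes the letters and does not show that a factor binds there.

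Col1a1 was the 1 gene that fell, in WT, from 60.4, 69.5 and 72.6 CPM to 53.2, 51.1 and 41.9 CPM, without overlap. The log2 fold change was -0.43 ± 0.14 (edgeR adjusted p = 0.044), and it was -0.13 ± 0.16 in EV, -0.12 ± 0.11 in 1CF10 and 0.29 ± 0.17 in 2CD7, none called. The call in WT was lost in 5 of 8 other settings and without any 1 of the WT libraries other than untreated library 1 (adjusted p = 0.0519 to 0.238). Timp1 was higher in every treated library of WT and EV than in the untreated ones, at 181 to 182 CPM against 159 to 170 CPM and at 214 to 224 CPM against 184 to 212 CPM. Its log2 fold changes of 0.20 ± 0.08 and 0.20 ± 0.07 were not called (adjusted p = 0.102 and 0.128).

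**Figure D5:**
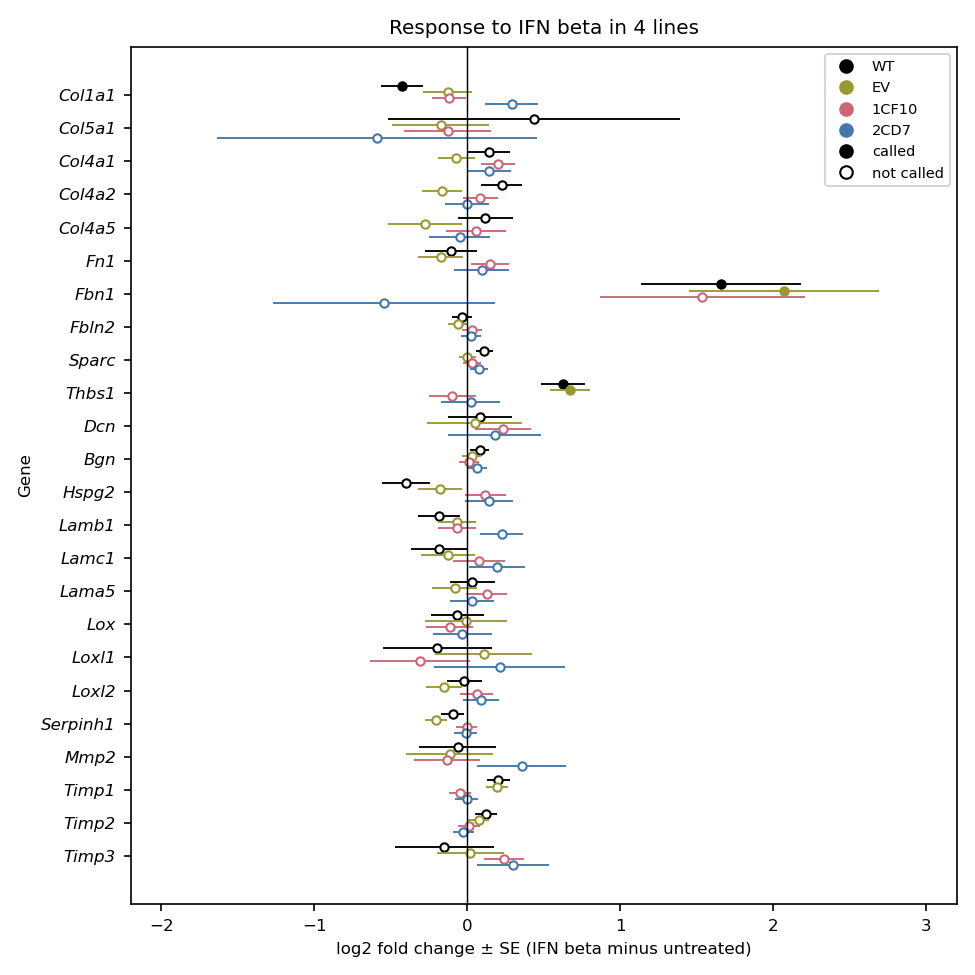
Log2 fold change ± SE of IFN beta against untreated cells in WT, EV, 1CF10 and 2CD7 for each tested matrix gene, with filled points for genes called at an edgeR adjusted p below 0.05. The filled points are those of Thbs1 and Fbn1 in WT and EV and of Col1a1 in WT, and all points of the clones are open.

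Other genes of matrix biology differed between the lines as well, in lists of genes related to the members. These lists too were chosen with earlier results of these data known. Between untreated 2CD7 and 1CF10, 10 of 17 tested matrix glycoproteins and elastic fibre genes were lower and 3 higher, with a median log2 difference of -0.39, where 5.69% of all tested genes were lower and 7.71% higher. Of 18 other proteases and inhibitors 6 were lower and 0 higher, of 5 other proteoglycans 2 and 0, of 15 matrix receptors 4 and 3, of 22 collagen biosynthesis and processing genes 2 and 3, of 8 other laminins and basement membrane genes 2 and 1, and of 15 TGF beta pathway genes 5 and 2. Of 2 other collagen chains tested none was called. Among the genes counted as lower, Mrc2 passed the filter on low counts through treated 1CF10 alone. Lamb3 passed it through EV and 1CF10 alone, and Emilin1 through 1CF10 and WT alone. No 2CD7 library reached the 3.98 CPM of that filter for Mrc2, Lamb3 or Emilin1. That they were tested rests on the groups where they were higher. The collagen biosynthesis and processing genes, which modify, export, cut or cross-link collagen, had a median log2 difference of -0.03.

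Ccn2, a matricellular growth factor gene, averaged 41.3 ± 8.02 CPM (SD, n = 3) in untreated WT, 100.1 ± 12.9 CPM in EV, 146 ± 4.42 CPM in 1CF10 and 58.6 ± 8.75 CPM in 2CD7. It was lower in 2CD7 than in 1CF10 by -1.29 ± 0.15 (edgeR adjusted p = 1.39e-06) and higher in EV than in WT by 1.28 ± 0.17 (adjusted p = 8.11e-06). Sdc2, which encodes the cell surface proteoglycan syndecan-2, was lower in 2CD7 than in 1CF10 by -1.36 ± 0.13 (adjusted p = 4.12e-12), and Plau, which encodes urokinase, by -1.93 ± 0.40 (adjusted p = 0.000231), although Plau passed the filter on low counts through EV and 1CF10 alone. Pcolce2, an enhancer of procollagen processing, was lower in 2CD7 than in 1CF10 by -1.03 ± 0.15 and higher in EV than in WT by 2.07 ± 0.18 (adjusted p = 4.83e-07 and 4.26e-14). In the opposite direction, P4ha2, a collagen prolyl hydroxylase gene, was higher in 2CD7 than in 1CF10 by 1.28 ± 0.26 and lower in EV than in WT by -2.31 ± 0.45 (adjusted p = 0.000171 and 9.09e-05). Mgp, which encodes an inhibitor of matrix calcification, had 10.3 to 16.5 CPM in untreated WT and 0 to 1.63 CPM in EV, a log2 difference of -3.70 ± 0.45 (adjusted p = 4.7e-09). Neither P4ha2 nor Mgp reached the 3.98 CPM of the filter on low counts in any EV library. That both were tested rests on the other lines, where they were higher.

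With IFN beta, 2 of 22 tested collagen biosynthesis and processing genes rose in WT and in EV, where 5.01% and 3.99% of all tested genes rose and 1.84% and 1.1% fell. They were Tgm2, which encodes a transglutaminase that cross-links matrix proteins (1.55 ± 0.12 and 0.98 ± 0.17), and Plod3, a lysyl hydroxylase gene (0.51 ± 0.13 and 0.55 ± 0.13), with edgeR adjusted p of at most 0.00438. The call of Plod3 in WT was lost without untreated WT library 3 (adjusted p = 0.107). Tgm2 went from 41.3 to 43.8 CPM to 114 to 127 CPM in WT. Of 15 matrix receptors 2 rose in each control: Itgb6, an integrin chain gene (2.51 ± 0.52 and 2.27 ± 0.40), and Cd47, a thrombospondin receptor gene (0.74 ± 0.07 and 0.64 ± 0.07), with adjusted p of at most 0.000327. Itgb6 passed the filter on low counts through treated WT and treated EV alone, where it was high. Mmp13, a collagenase gene, rose by 1.62 ± 0.17 in WT and 0.81 ± 0.14 in EV (adjusted p = 5.21e-12 and 1.2e-05). It went from 14.4 to 21.8 CPM to 47.3 to 56.2 CPM in WT. Ccn2 rose by 0.89 ± 0.18 in WT and 0.59 ± 0.14 in EV (edgeR adjusted p = 0.00141 and 0.0124). Its call in EV was lost without treated EV library 2 or untreated EV library 1. The basement membrane genes Agrn (0.97 ± 0.20) and Ntn4 (0.98 ± 0.26) rose in WT. So did Spp1, a glycoprotein gene (0.27 ± 0.06), and Ctsb, a protease gene (0.28 ± 0.07). For Agrn, Ntn4, Spp1 and Ctsb adjusted p was at most 0.00925. The call of Ntn4 was lost without untreated WT library 2 or 3. Other genes fell. Mmp11, which encodes the metalloproteinase stromelysin-3, fell in WT from 53.2 to 57.4 CPM to 31.5 to 36.2 CPM, a log2 fold change of -0.64 ± 0.14 (edgeR adjusted p = 0.000581). Ccn4, a matricellular gene of the family of Ccn2, fell in WT (-0.27 ± 0.07) and in EV (-0.41 ± 0.07) (adjusted p = 0.00471 and 9.55e-06), and the call in WT was lost without treated WT library 3 or untreated WT library 1 (adjusted p up to 0.09). Sdc1, which encodes syndecan-1, fell in WT, with a log2 fold change of -0.30 ± 0.09 (adjusted p = 0.0285), a call lost with DESeq2, with no filter and without any 1 of the WT libraries other than treated library 1 (adjusted p up to 0.156). Tinagl1, a basement membrane protein gene, fell in EV, with a log2 fold change of -0.32 ± 0.08 (adjusted p = 0.0104), a call lost without treated or untreated EV library 1 (adjusted p up to 0.109). Of the 15 tested TGF beta pathway genes, 0 were called in WT and 1 in EV.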

How the data were processed

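Messenger RNA was measured in 24 libraries by counting UMIs of 3′ cDNA tags, and the deposited table holds raw counts of UMIs per gene, as the authors made it. The submitters' processing notes name cutadapt 3.0, R 3.6.2 and 4.1.2, limma 3.50.0, edgeR 3.36.0 and, as genome builds, mm10 and GRCm38, without roles. The sources used here name no aligner.

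The members and the wider lists were chosen with earlier results of these data known. Counts were fitted in R 4.3.3 with edgeR 4.0.16 (TMM scaling, filterByExpr at min.count 10 and min.total.count 15, 8 group means, robust quasi-likelihood F test), with Benjamini-Hochberg adjustment over all tested genes and calls at an adjusted p below 0.05. SE is the log2 fold change divided by the root of F. Replication is 3 libraries a group. Alternatives were DESeq2 1.42.0, limma 3.58.1 voom, RLE scaling, no filter, a minimum count of 30, thinning, a replicate block, the compared groups alone and each library left out.

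Members named with values in all libraries were those called with IFN beta in WT or EV, up to 4 in each direction with the largest change in each untreated comparison of lines, and partner chains. Of each wider list, up to 2 called genes in each direction could be named. Same-numbered libraries deviated together very little (mean r = 0.00922, against -0.0046 for other numbers). The numbers were not taken as pairs, and the replicate block was fitted as an alternative. Promoter windows came from RefSeq (GRCm38.p6) for 22 of the 33 genes, in 24 windows of 300 bases. Gene coordinates are those of GENCODE on GRCm38. Intervals of ratios and limits of 0 counts cover counting error only.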

Additional observations from a re-analysis of the deposited data

Results flagged for a closer look

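The response of Thbs1 to IFN beta differed between the clones and the controls by a test of the difference itself. The mean log2 fold change of the 2 Ifnar1 knockout clones was lower than that of WT and EV by -0.69 ± 0.16 (edgeR adjusted p = 0.00224). All 6 treated control libraries were above the untreated libraries of their line, and the treated clone libraries overlapped with the untreated ones.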

How the results depend on the processing

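The counts of matrix genes called between lines stayed within 1.5 times under every alternative, and no call changed sign. Of 68 calls between untreated lines, 55 were never lost, 8 were lost in another setting and 13 without 1 library. Of 81 calls between treated lines 55 were never lost. The IFN beta counts were less stable. In WT, 3 genes became 1 with DESeq2 and with a minimum count of 30, and 0 to 2 with 1 library left out. In EV, 2 became 1 with DESeq2, a minimum count of 30, thinning or the compared groups alone, and 1 to 3 with 1 library left out. For the difference between clones and controls, 1 became 2 with no filter, a minimum count of 30 or thinning, and 1 to 3 with 1 library left out. Of 155 gene calls, DESeq2 lost 18 of the 154 it tested and thinning 12 of 151, and the cause was not tested. With the replicate number as a block, 2 of 155 calls were lost, both of Loxl1. The number called between untreated clones was again 16, but these were not all the same genes, since Loxl1 was no longer among them. Of the libraries, 13 of 24 had their highest mean correlation of deviations with the libraries of their own number, which is more than an equal share among the numbers. Depth limits 9 members, with 2 to 76 UMIs over all libraries, which could not be tested.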
